A study of Homo sapiens with 9 samples.

Results

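The ATP-binding cassette (ABC) transporter genes of LAN5 cells were followed across knockdown of MYCN and of HAND2. Members were all genes whose symbol has the form ABC, a subfamily letter from A to G and a number; 37 of the 25084 genes in the deposited table met this rule, and 23 of the 37 had at least 1 CPM (the share of a library's assigned reads that fall on a gene, scaled to a fixed total) in at least 3 of the 9 libraries and were tested. LAN5 is an established human neuroblastoma cell line with amplified MYCN, grown in RPMI-1640 with fetal calf serum. Each of the 3 groups had 3 libraries of total RNA, taken 72 h after nucleofection (electroporation) of siRNA: siCTR as the control, siMYCN_2 (here siMYCN) aimed at MYCN, or siHAND2_3 (here siHAND2) aimed at HAND2. Only 1 siRNA per target was used in these libraries, so an effect of the target and an off-target effect of that siRNA cannot be told apart. Nothing in the labels says that the libraries of a group came from separate cultures, so p-values measure the spread between these libraries, which may be technical.

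ABC proteins bind and split ATP in a pair of nucleotide-binding domains, and most use that energy to move a substrate across a membrane. Members of the ABCB and ABCC subfamilies at the cell surface can pump anticancer drugs out of the cell. In neuroblastoma tumours, high ABCC1 and ABCC4 and low ABCC3 transcript levels have been linked to MYCN amplification and to poor outcome. Other members move lipids (ABCA, ABCG), fatty acids into peroxisomes (ABCD) or substrates within organelles such as mitochondria (several ABCB), and ABCE1 and the ABCF proteins have no membrane part and act on ribosomes and translation.

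The targeted transcripts were lower under their own siRNA: MYCN stood at 1848, 1894 and 1786 CPM in the control libraries and at 1338, 1245 and 1285 under siMYCN (69.98% of the siCTR mean), and HAND2 fell from 501 ± 13.7 to 272 ± 7.65 CPM in siHAND2 (SD, n = 3 libraries; 54.2%). MYCN was lower still in siHAND2, at 898, 969 and 877 CPM (49.6%), so both knockdowns lowered MYCN. HAND2 rose in siMYCN, to 588, 557 and 568 CPM (0.19 on the log2 scale, limma, adjusted p = 0.00183), so the knockdowns differ in both transcripts. Assigned reads set the precision of each library, where 1 CPM stood for 21.1 to 32.7 reads. All 8 neuroblastoma markers examined had a mean of at least 1 CPM, while the Schwann, immune and endothelial markers summed to at most 2.68, 0.724 and 1.19 CPM in any library. The neuroblastoma markers summed to 2097 to 2239 CPM in siCTR, 2662 to 2747 in siMYCN and 2185 to 2302 in siHAND2. In siMYCN 7 of the 8 rose, where 24.5% of all tested genes rose. In siHAND2 members went both ways: DBH, TH and DDC fell to 49.4%, 48.6% and 84.04% of the siCTR mean, and STMN2 and NEFM rose to 194% and 273%. The 8 stromal markers, 7 of them at a mean of at least 1 CPM and COL1A1 below, summed to 174 to 179 CPM in siCTR, 206 to 215 in siMYCN and 312 to 357 in siHAND2. These too went both ways in siHAND2, where DCN, LUM, COL1A2, COL3A1 and PDGFRB rose and THY1 fell (-0.20 on the log2 scale, limma, adjusted p = 0.0270), and COL1A1 averaged 0.363 CPM against 0.720 in siCTR. The part of either marker list in the results below was not tested, and in bulk RNA fewer cells of a type and less RNA per cell cannot be told apart.

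In siMYCN, 10 of the 23 tested members passed an adjusted p of 0.05 (limma on log2(CPM + 1), Benjamini-Hochberg over 14495 genes), which is 43.5% against 35.9% of all tested genes. There were 5 that rose, among them ABCA7, ABCC10, ABCD4 and ABCA12, and the 5 that fell were ABCB6, ABCC4, ABCE1, ABCD3 and ABCF2. Over all genes 24.5% rose and 11.4% fell. The split of the members moved with the scaling of the libraries, to 5 higher and 8 lower after median-ratio rescaling and 4 higher and 8 lower after quantile normalization.

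In siHAND2, 8 members passed, 34.8% against 29.9% of all tested genes. The 3 that rose were ABCA12, ABCD2 and ABCD4, and 5 fell, among them ABCB6, ABCA3, ABCE1 and ABCF1, against 18.1% of all genes that rose and 11.8% that fell. After median-ratio rescaling the split was 2 higher and 7 lower, and the same after quantile normalization. The median log2 difference of the 23 members was 0.02 in siMYCN and -0.0032 in siHAND2, beside 0.06 and 0.04 for all tested genes. Counted in either direction, both shares lay near the background. By direction, 5 of the 23 members fell in each knockdown, a larger share than the 11.4% and 11.8% of all tested genes. The 5 that rose in siMYCN and the 3 in siHAND2 were smaller shares than the 24.5% and 18.1% of all tested genes. These differences in share rest on few genes and were not tested. Only ABCA12 differed from siCTR by more than 1 on the log2 scale in either knockdown.

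**Figure D1:**
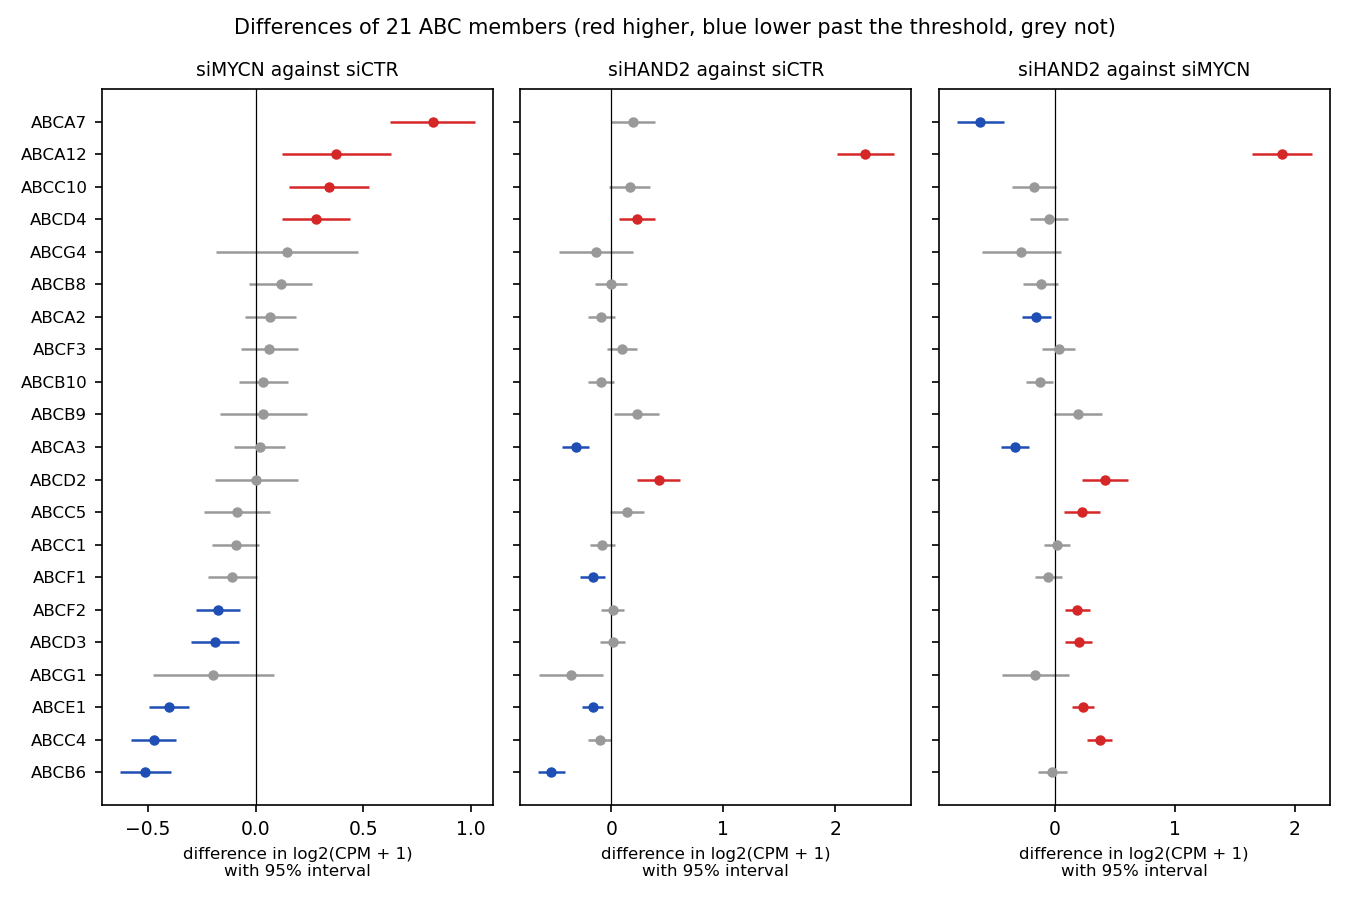
Differences in log2(CPM + 1) of 21 of the 23 tested ABC members (points) with 95% intervals from limma (lines), with 1 panel for each knockdown against the control and 1 for siHAND2 minus siMYCN. Members are ordered by their siMYCN difference; red is higher and blue is lower past an adjusted p of 0.05, and ABCA12 stands furthest from zero in both panels that contain siHAND2.

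Levels of different members were compared per kb of the canonical transcript, since long transcripts give more reads. In siCTR the ribosome-recycling factor ABCE1 was highest, at 46.3 ± 0.824 CPM per kb (SD, n = 3 libraries), followed by the translation factor ABCF1 at 42.8 ± 1.04 and the phospholipid transporter ABCA3 at 36.3 ± 0.957. The peroxisomal transporter ABCD3 came next at 25.9 ± 0.547 CPM per kb. Among the drug-efflux members ABCC1 was highest at 14.4 ± 0.632 CPM per kb and ABCC4 followed at 10.1 ± 0.167. ABCF3, ABCC4 and ABCB10 lay at 10.3 ± 0.158, 10.1 ± 0.167 and 10.01 ± 0.518 CPM per kb and did not differ beyond their spread. ABCC5 (6.54 ± 0.674) and ABCA2 (6.04 ± 0.361) were likewise within their spread of each other.

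**Figure D2:**
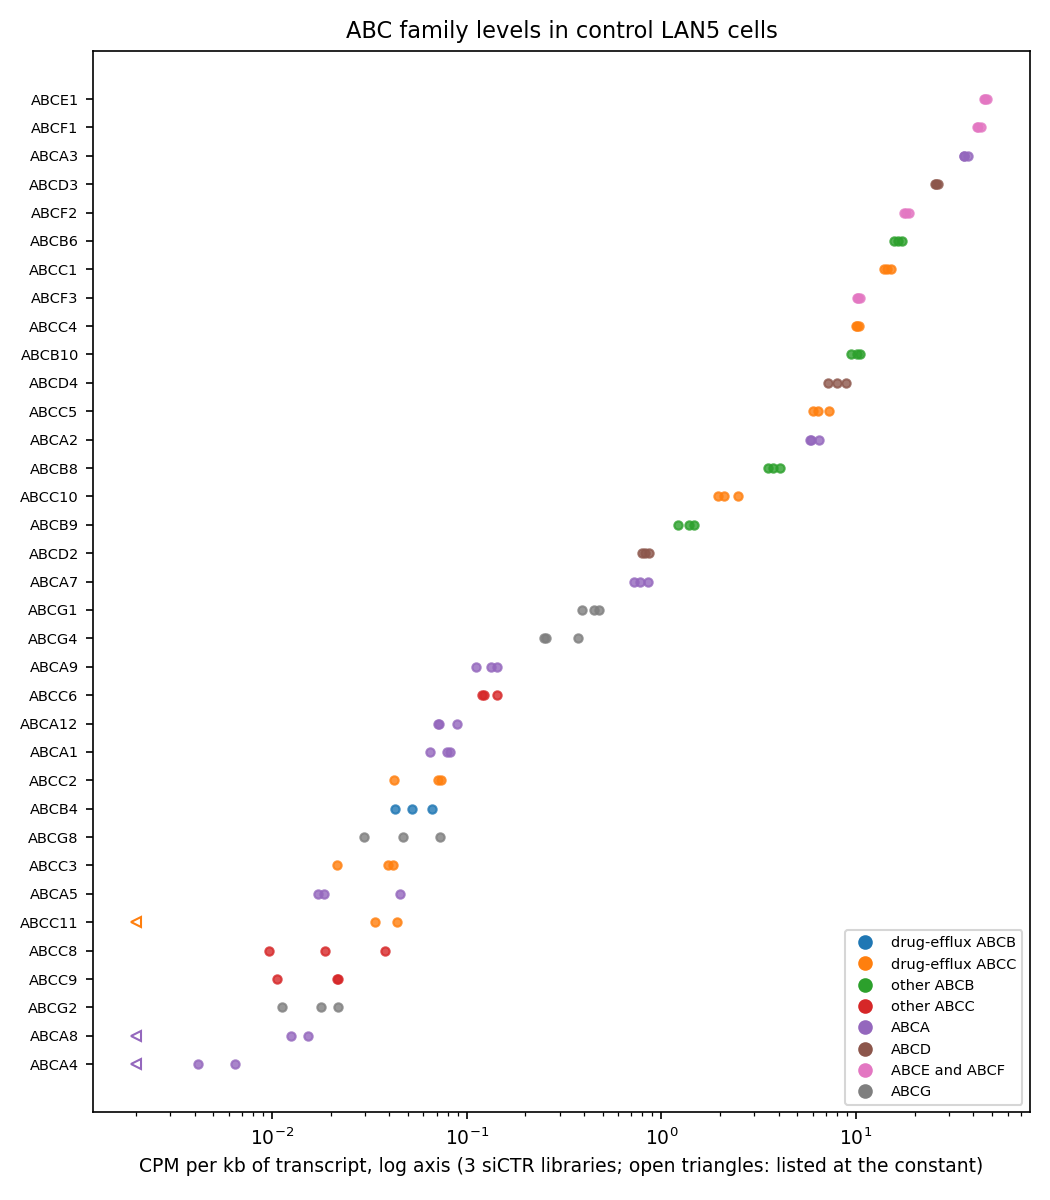
CPM per kb of canonical transcript (log axis) for 35 of the 37 ABC members in the 3 siCTR libraries, 1 point per library, coloured by subfamily and role. Open triangles at the left edge mark libraries whose value is the constant of 0.0001 CPM; ABCE1, ABCF1 and ABCA3 lie at the top, and ABCC1 leads the drug-efflux members.

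The drug-efflux members were 1 ABCB and 7 ABCC genes, of which ABCC1, ABCC4, ABCC5 and ABCC10 passed the filter on low values. ABCB4, ABCC2, ABCC3 and ABCC11 did not pass it. ABCB4, mainly a phosphatidylcholine transporter of liver, ranged from 0.0659 to 0.384 CPM over the 9 libraries. ABCC2 ranged from 0.161 to 0.496 CPM and ABCC3 from 0.0768 to 0.237 CPM. ABCC11 ranged from 0.0001 to 0.457 CPM, where the lowest value is the constant carried by every gene listed at 0, and lies across the more abundant LONP2 on the other strand. ABCB1, ABCB5 and ABCB11 were not found under these symbols in the table used here, so they were not analysed. The same holds for ABCA6, ABCA10, ABCA13, ABCC12, ABCC13 and ABCG5. All tested drug-efflux members were thus ABCC genes.

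ABCC4 (chromosome 13, 95019835 to 95301475, GRCh38), which exports cyclic nucleotides, nucleotide analogues and camptothecins, showed the largest drop of the drug-efflux members. It measured 60.5, 58.5 and 59.2 CPM in the control libraries, 41.1, 42.5 and 44.03 after MYCN knockdown and 54.03, 54.1 and 58 after HAND2 knockdown. All 3 siMYCN libraries lay below the other 6, and the 3 siHAND2 libraries lay just below the 3 siCTR libraries. The siMYCN mean was 71.6% of that in siCTR, a log2 difference of -0.47 (standard error 0.048, limma, adjusted p = 1.96e-06). In siHAND2 the difference was -0.10 (95% interval -0.20 to 0.0025, adjusted p = 0.132), which passed the threshold in 3 of 19 alternative settings. The direct comparison separated the knockdowns by 0.37 (adjusted p = 2.09e-05), with ABCC4 higher in siHAND2 than in siMYCN. Both MYCN and HAND2 transcripts were lower in siHAND2 than in siMYCN, and the relation of ABCC4 to either was not tested.

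ABCC1 (chromosome 16, 15949577 to 16143074), which exports glutathione conjugates and natural-product drugs such as vincristine and etoposide, was nearly level across the groups. It measured 98.3, 93.4 and 90.1 CPM with the control siRNA, 94.4, 83.6 and 86.4 with the MYCN siRNA and 91.6, 86.5 and 88.5 with the HAND2 siRNA. The groups overlapped, with siMYCN replicate 1 above 2 of the siCTR libraries. The log2 difference was -0.092 in siMYCN (95% interval -0.20 to 0.017, limma, adjusted p = 0.180) and -0.079 in siHAND2 (95% interval -0.19 to 0.030, adjusted p = 0.269). With the libraries rescaled by median ratio or by quantiles the siMYCN difference was -0.15 and -0.14, and it passed the threshold (adjusted p = 0.0372 and 0.0432). With CPM as deposited, both intervals hold 0 and reach to a drop of ABCC1 near 0.20 on the log2 scale.

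ABCC10 (chromosome 6, 43427366 to 43450427), which exports taxanes, moved the other way in siMYCN. It measured 9.904, 10.5 and 12.5 CPM in the control libraries, 14.2, 13.04 and 15.1 after MYCN knockdown and 12.1, 13.3 and 11.7 after HAND2 knockdown. All 3 siMYCN libraries lay above the 3 siCTR libraries, while siHAND2 overlapped siCTR. The log2 difference was 0.34 in siMYCN (standard error 0.087, limma, adjusted p = 0.00600) and 0.17 after HAND2 knockdown (95% interval -0.018 to 0.35, adjusted p = 0.165). ABCC10 overlaps DLK2 on the other strand, at a mean of 4.99 CPM, which fell in siHAND2 (-0.40, adjusted p = 0.00654), and the use of strand in the counting is not given in the sources used here.

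ABCC5 (chromosome 3, 183919934 to 184017939), an exporter of cyclic nucleotides and nucleotide analogues, measured 34.6, 36.8 and 42.2 CPM with the control siRNA, 33.1, 38 and 35.7 with the MYCN siRNA and 39.8, 40.7 and 44.5 with the HAND2 siRNA. Neither knockdown passed the threshold against siCTR: the limma difference was -0.085 for siMYCN, with an adjusted p of 0.386, and 0.14 for siHAND2, with 0.159. The siHAND2 libraries all lay above the siMYCN libraries, with a direct difference of 0.22 (adjusted p = 0.0291). That call was lost without siMYCN replicate 1 (0.17), siMYCN replicate 3 (0.23), siHAND2 replicate 2 (0.24) or siHAND2 replicate 3 (0.18), and with no intensity trend. Summed over its 7 genes, the drug-efflux ABCC level was 203 ± 2.399 CPM with the control siRNA, 181 ± 2.904 after MYCN knockdown and 199 ± 4.19 after HAND2 knockdown (SD over 3 libraries each), and the siMYCN sums lay below all others. ABCC4 held most of that drop.

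**Figure D3:**
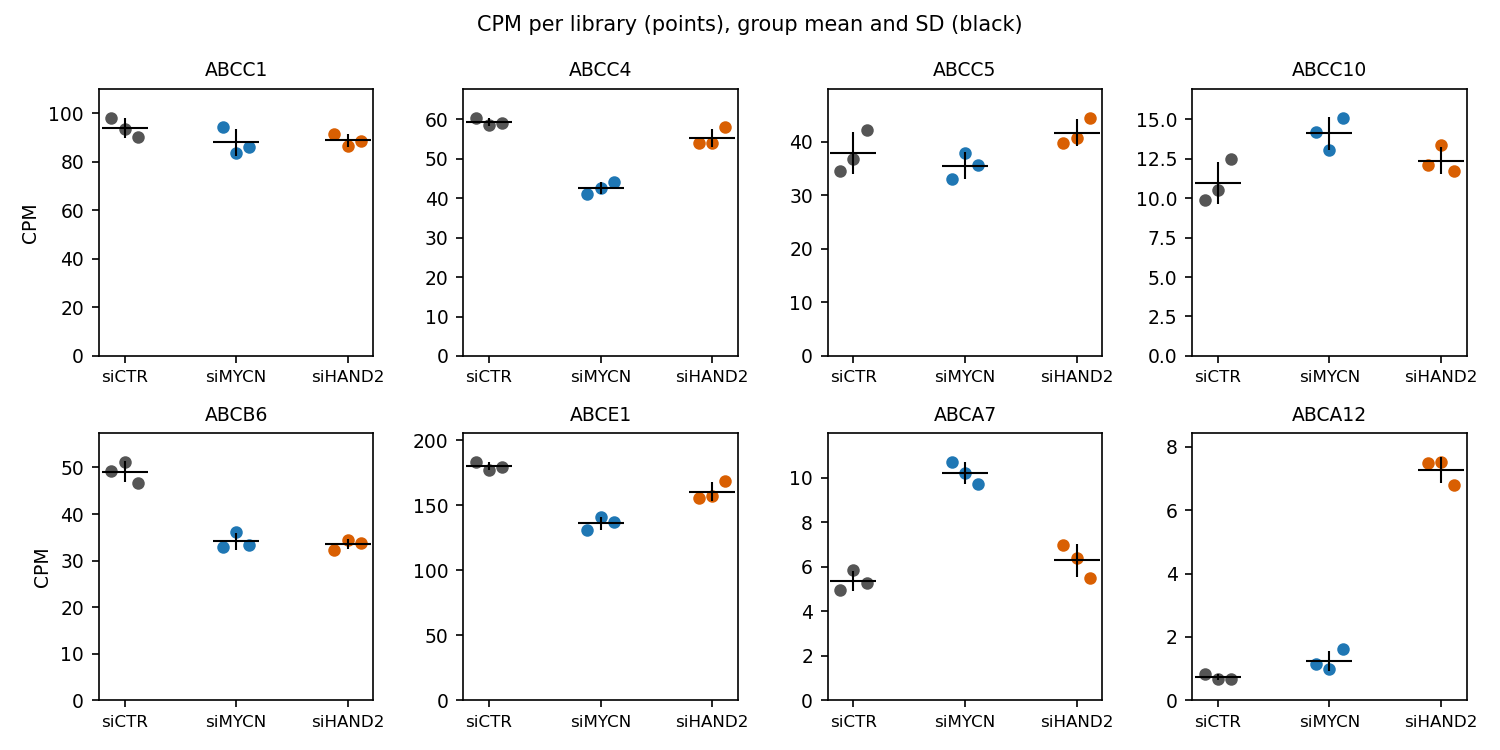
CPM in each of the 9 libraries (points) with group mean and SD (black) for the drug-efflux members ABCC1, ABCC4, ABCC5 and ABCC10 and for ABCB6, ABCE1, ABCA7 and ABCA12; each vertical axis starts at 0. ABCC4 and ABCE1 are lowest in siMYCN, ABCB6 is low in both knockdowns, ABCA7 is highest in siMYCN and ABCA12 in siHAND2.

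Of the 4 members that act on ribosomes and translation, ABCE1 and ABCF2 fell in siMYCN and ABCE1 and ABCF1 fell in siHAND2. Of all tested genes 11.4% fell in siMYCN and 11.8% in siHAND2. ABCE1 (chromosome 4, 145098288 to 145129524), which splits ribosomes after termination so that they can be used again, measured 183, 177 and 179.5 CPM in the control libraries, 131, 141 and 137 after MYCN knockdown and 155, 157 and 169 after HAND2 knockdown. The 3 groups did not overlap, with siMYCN lowest and siHAND2 between. The log2 difference of ABCE1 was -0.40 with the MYCN siRNA (standard error 0.044, limma, adjusted p = 4.1e-06) and -0.17 with the HAND2 siRNA (adjusted p = 0.00936). The knockdowns differed by 0.23 (adjusted p = 0.000772). Its overlapping neighbours on the other strand, OTUD4 and ANAPC10, differed by -0.070 and 0.014 in siMYCN, and neither passed the threshold.

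ABCF2 (chromosome 7, 151207837 to 151227205), a soluble ABC protein, measured 84.98, 79.7 and 81.6 CPM with the control siRNA, 75.4, 68.5 and 74.3 with the MYCN siRNA and 85.01, 81.2 and 82.3 with the HAND2 siRNA. It fell in siMYCN (-0.17, limma, adjusted p = 0.00951), a call lost without siCTR replicate 1 (-0.15) or siMYCN replicate 2 (-0.13), and in siHAND2 it differed by 0.013. ABCF1 (chromosome 6, 30571393 to 30597179), which takes part in translation initiation, measured 149.8, 145 and 143 CPM in the control libraries, 143, 128 and 135 after MYCN knockdown and 140.3, 128 and 122 after HAND2 knockdown. It passed in siHAND2 (-0.16, adjusted p = 0.0281) and not in siMYCN (-0.11, adjusted p = 0.130), where 3 of 19 alternative settings passed, but the direct difference of the knockdowns was -0.057 (adjusted p = 0.465). The siHAND2 call of ABCF1 was lost without siCTR replicate 1 (-0.15) or 2 (-0.17), without siHAND2 replicate 2 (-0.16) or 3 (-0.12), and with no intensity trend. ABCF3, whose yeast relative acts with the kinase regulator GCN1, ranged from 24.4 to 28.7 CPM and passed in no comparison. The summed level of ABCE1 and the 3 ABCF genes was 433 ± 8.78, 371 ± 6.73 and 400.3 ± 7.86 CPM in siCTR, siMYCN and siHAND2 (SD, n = 3 libraries).

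Of the organelle ABCB members, ABCB6 fell by a similar amount in both knockdowns. ABCB6 (chromosome 2, 219209772 to 219218994), a transporter linked to porphyrins, measured 49.2, 51.2 and 46.7 CPM with the control siRNA, 32.9, 36.2 and 33.3 with the MYCN siRNA and 32.3, 34.5 and 33.9 with the HAND2 siRNA. All 6 knockdown libraries lay below the 3 siCTR libraries. The log2 difference was -0.51 in siMYCN (standard error 0.056, limma, adjusted p = 3.47e-06) and -0.53 after HAND2 knockdown (adjusted p = 1.87e-06). Both comparisons use the same siCTR libraries. Between the knockdowns ABCB6 differed by -0.022 (95% interval -0.14 to 0.096, adjusted p = 0.811). AC068946.2 overlaps ABCB6 on the same strand, at a mean of 4.49 CPM. It differed by -0.25 in siMYCN and 0.023 in siHAND2, and neither passed the threshold.

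ABCB10, a mitochondrial transporter that acts in heme supply, ranged from 35.4 to 41.1 CPM. ABCB8, also mitochondrial, ranged from 16.4 to 19.7 CPM, and the lysosomal peptide transporter ABCB9 from 4.25 to 5.89 CPM. None of these 3 passed in any comparison. ABCB9 lies across the more abundant ARL6IP4 on the other strand. The 5 organelle members summed to 160.4 ± 1.51, 145 ± 5.13 and 136 ± 2.53 CPM in siCTR, siMYCN and siHAND2.

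The lipid transporters of the ABCA subfamily gave the largest rises. ABCA12 (chromosome 2, 214931542 to 215138626), which loads glucosylceramides into lamellar granules of keratinocytes, measured 0.825, 0.674 and 0.664 CPM with the control siRNA, 1.13, 0.997 and 1.61 with the MYCN siRNA and 7.498, 7.53 and 6.802 with the HAND2 siRNA. The siHAND2 libraries lay far above the other 6, and the siMYCN libraries lay above siCTR. The siHAND2 mean was 10.1-fold that of siCTR, with a log2 difference of 2.27 (standard error 0.12, limma, adjusted p = 5.64e-10) that depended on the pseudocount, from 3.17 at 0.1 to 1.10 at 5. The gene was under 1 CPM in siCTR, so it passed the filter on low values only through the knockdown libraries. In siMYCN the rise was 0.38 (adjusted p = 0.0215), and this call was lost in 6 of 19 alternative settings. It was lost with no filter on low values (adjusted p = 0.0519), at a pseudocount of 5, after quantile normalization, and on leaving out control replicate 2 (0.36), control replicate 3 (0.35) or replicate 3 of siMYCN (0.26). At a pseudocount of 5 the siMYCN value was 0.13 and at 0.1 it was 0.69. SNHG31 overlaps ABCA12 on the other strand, at a mean of 0.502 CPM. The stromal markers given above had their highest sum in siHAND2, with members moving both ways, and their part in the ABCA12 result was not tested.

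ABCA7 (chromosome 19, 1039997 to 1065572), a phospholipid transporter known as an Alzheimer's disease risk gene, rose in siMYCN. It measured 4.95, 5.84 and 5.27 CPM in the control libraries, 10.7, 10.2 and 9.73 after MYCN knockdown and 6.97, 6.41 and 5.49 after HAND2 knockdown. The siMYCN libraries lay above all others, and siHAND2 overlapped siCTR. The siMYCN mean was 191% of that in siCTR (0.82 on the log2 scale, standard error 0.093, limma, adjusted p = 5.12e-06). In siHAND2 the difference was 0.20 (95% interval -0.00020 to 0.39, adjusted p = 0.124), and the knockdowns differed by -0.63 (adjusted p = 7.99e-05).

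ABCA3 (chromosome 16, 2275881 to 2340746), which loads phospholipids into lamellar bodies of the lung, had the highest CPM per kb of the ABCA members in siCTR. It measured 247, 236 and 236 CPM with the control siRNA, 258, 236 and 236 with the MYCN siRNA and 208, 194 and 176 with the HAND2 siRNA. The siHAND2 libraries lay below the other 6. ABCA3 fell in siHAND2 (-0.32, limma, adjusted p = 0.000363), and the difference in siMYCN was 0.019 (95% interval -0.097 to 0.14). The knockdowns differed by -0.34 (adjusted p = 0.000208). ABCA2, a lysosomal lipid transporter of neural cells, ranged from 43.4 to 53.2 CPM and passed only between the knockdowns (-0.16, adjusted p = 0.0496), a call lost in 14 of 19 alternative settings, with values from -0.20 to -0.12 over all of them. The other 5 ABCA genes found in the table did not pass the filter on low values. The cholesterol exporter ABCA1 ranged from 0.239 to 0.854 CPM, ABCA9 from 0.199 to 0.925 and ABCA5 from 0.0330 to 0.374. The retinal transporter ABCA4 ranged from 0.0001 to 0.153 CPM and ABCA8 from 0.0001 to 0.0918.

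All 4 ABCD genes passed the filter. ABCD2 (chromosome 12, 39550033 to 39619803), a peroxisomal importer of fatty acids, rose in siHAND2. It measured 5.01, 5.203 and 5.46 CPM with the control siRNA, 5.28, 4.64 and 5.86 with the MYCN siRNA and 7.202, 7.17 and 7.65 with the HAND2 siRNA, and the siHAND2 libraries lay above the other 6. The log2 difference was 0.42 in siHAND2 (standard error 0.090, limma, adjusted p = 0.00212) and 0.0038 in siMYCN (95% interval -0.19 to 0.20), and the knockdowns differed by 0.42 (adjusted p = 0.00233).

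ABCD3 (chromosome 1, 94418389 to 94518666), which brings branched-chain and bile acid precursors into peroxisomes, measured 93.1, 91.3 and 95.2 CPM in the control libraries, 78.05, 82.7 and 84.8 after MYCN knockdown and 92.2, 88.4 and 102 after HAND2 knockdown. It fell in siMYCN (-0.19, limma, adjusted p = 0.0113), a call lost without siMYCN replicate 1 (-0.15), and differed by 0.012 in siHAND2. ABCD4 (chromosome 14, 74285269 to 74303055), which moves cobalamin (vitamin B12) out of lysosomes, measured 21.8, 24.1 and 26.8 CPM with the control siRNA, 28.4, 32.5 and 28.04 with the MYCN siRNA and 28.9, 27.2 and 29.5 with the HAND2 siRNA. All 6 knockdown libraries lay above the 3 siCTR libraries, by 0.28 after MYCN knockdown (adjusted p = 0.00785) and 0.23 after HAND2 knockdown (limma, adjusted p = 0.0283). AC005519.1 overlaps ABCD4 on the same strand, at a mean of 1.11 CPM, and rose in siHAND2 (0.43, limma, adjusted p = 0.0185). The siMYCN call of ABCD4 was lost without siCTR replicate 1 (0.21). The siHAND2 call was lost in 7 of 19 alternative settings, among them both other scalings and those without siCTR replicate 1 (0.16), siCTR replicate 2 (0.23), siHAND2 replicate 1 (0.22) or siHAND2 replicate 3 (0.21).

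**Figure D4:**
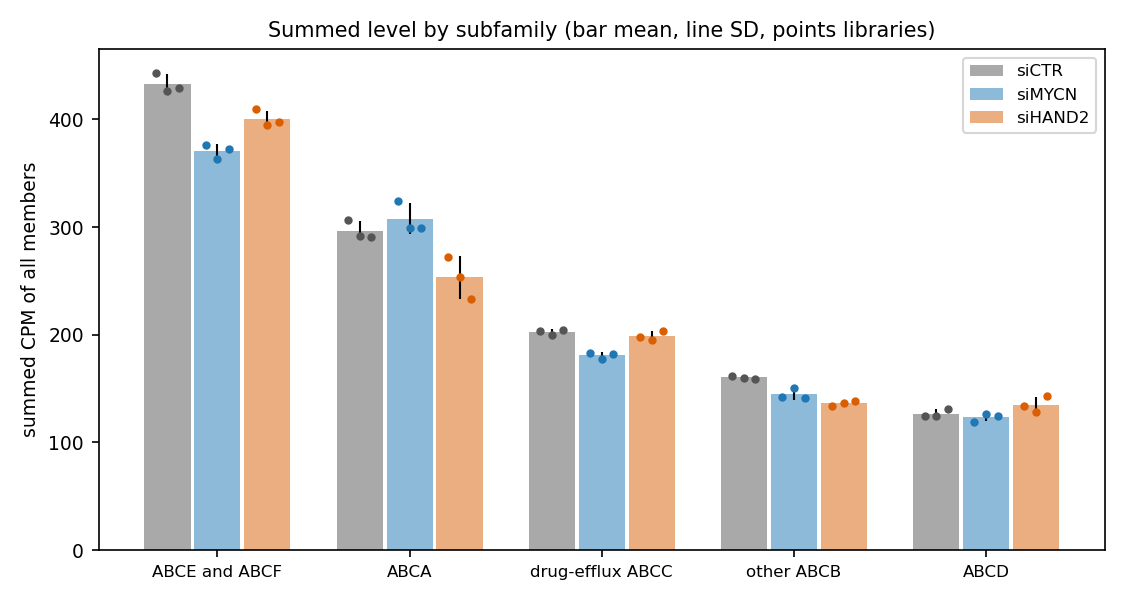
Summed CPM of the members of 5 subfamily groups (bars, group means; lines, SD; points, 3 libraries per group), with the vertical axis from 0. The ABCE and ABCF sum and the drug-efflux ABCC sum are lowest in siMYCN, and the ABCA sum and the organelle ABCB sum are lowest in siHAND2.

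The ABCG and remaining ABCC genes found in the table were low, at most 1.76 CPM in any library. ABCG2, a drug exporter also known as breast cancer resistance protein, ranged from 0.0384 to 0.0988 CPM, and the sterol transporter ABCG8 from 0.121 to 0.522 CPM. ABCG1 and ABCG4, which export cholesterol, ranged from 0.637 to 1.42 and from 0.797 to 1.76 CPM and passed in no comparison. ABCG1 had its highest mean in siCTR, where it exceeded 1 CPM in all 3 libraries and so passed the filter, and in siHAND2 it differed by -0.36 (limma, adjusted p = 0.0520), which passed the threshold in 8 alternative settings. The potassium channel subunits ABCC8 and ABCC9 stayed below 1 CPM, from 0.0476 to 0.428 and from 0.0918 to 0.308 CPM. ABCC6, which releases ATP from liver cells and has pseudogenes that can share its reads, ranged from 0.617 to 1.03 CPM. Such sharing was not examined here. Over all 37 members the summed level was 1224 ± 18.4 CPM with the control siRNA, 1132 ± 14.97 after MYCN knockdown and 1128 ± 20.97 after HAND2 knockdown (SD over 3 libraries each). TAP2, a peptide transporter of the family with another form of symbol, differed by -0.33 with the MYCN siRNA (adjusted p = 0.0381, groups overlapping) and -0.49 with the HAND2 siRNA (adjusted p = 0.00511), and its partner TAP1 was at most 0.187 CPM in any library.

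The direct comparison of siHAND2 with siMYCN asked where the knockdowns differ. Its differences come from those 6 libraries, while its spread is estimated from all 9. Of the 23 tested members 11 passed, 47.8% against 26.9% of all tested genes. The 7 higher in siHAND2 were ABCA12, ABCD2, ABCC4, ABCE1, ABCC5, ABCD3 and ABCF2, and the 4 lower included ABCA7, ABCA3 and ABCA2, beside 11.4% and 15.5% of all genes. ABCA12, which passed the filter on low values only through knockdown libraries, differed by 1.89 (standard error 0.12), with values from 0.98 to 2.48 over pseudocounts of 5 and 0.1. ABCF2 and ABCD3 differed by 0.19 (adjusted p = 0.00791) and 0.20 (adjusted p = 0.0102), the latter a call lost without siMYCN replicate 1 (0.16).

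Partners and regulators of ABC proteins were examined as a list of 26 genes, of which 23 were tested. The share called was 34.8% in siMYCN, 30.4% in siHAND2 and 26.1% between the knockdowns, against 35.9%, 29.9% and 26.9% of all tested genes, so the list lay at the background. In siMYCN 4 rose and 4 fell. The membrane linkers EZR (0.31, limma, adjusted p = 0.000244) and RDX (0.30, adjusted p = 0.000591), which tie surface transporters to actin, rose. GCLC, the catalytic subunit of the first step of glutathione synthesis, fell (-0.24, adjusted p = 0.00174), as did FECH, which inserts iron into heme (-0.20, adjusted p = 0.0177). In siHAND2 3 rose and 4 fell. RXRA, the receptor partner of the liver X receptors that induce ABCA1 and ABCG1, rose (0.46, adjusted p = 0.000121), and RDX rose (0.25, adjusted p = 0.00312), while EZR (-0.37, adjusted p = 4.97e-05) and FECH (-0.42, adjusted p = 8.09e-05) fell. Between the knockdowns 3 were higher and 3 lower in siHAND2. MYLIP (0.27, adjusted p = 0.0220), a liver X receptor target, and RXRA (0.22, adjusted p = 0.0262) were higher, and EZR (-0.68, adjusted p = 3.97e-08) and LMBRD1 (-0.31, adjusted p = 0.00687), the lysosomal partner of ABCD4, were lower. The list's median log2 difference was -0.03, -0.05 and -0.03 in the 3 comparisons.

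Promoter sequence was read because MYCN binds as a dimer with MAX to the E-box CACGTG and HAND2 binds with E-proteins to E-boxes such as CATCTG. Windows of 300 bases (250 before to 50 after an annotated start, RefSeq, GRCh38.p14) were found for 28 of the 37 members, 42 windows in all. CACGTG, which reads the same on both strands, was in 9 of the 42 windows (21.4%) and in 7.26% of all 35116 windows; CATCTG or its reverse complement CAGATG was in 6 of the 42 (14.3%) and in 14.7% of all. The motifs were searched separately. Several members have more than 1 window and some windows overlap, so the windows are not independent. The 9 windows with CACGTG belong to 8 genes, since 2 overlapping windows of ABCG2 hold the same site. Of these genes ABCA1, ABCA9 and ABCG2 did not pass the filter on low values. Below are the windows of ABCB6, which fell in both knockdowns, ABCC4 and ABCE1, which came next after ABCB6 in the size of their fall in siMYCN, and ABCA12, which rose most in siHAND2, on the minus strand except ABCE1. They run 5′ to 3′ with either motif in capitals.
ABCB6 chr2:219218909-219219208: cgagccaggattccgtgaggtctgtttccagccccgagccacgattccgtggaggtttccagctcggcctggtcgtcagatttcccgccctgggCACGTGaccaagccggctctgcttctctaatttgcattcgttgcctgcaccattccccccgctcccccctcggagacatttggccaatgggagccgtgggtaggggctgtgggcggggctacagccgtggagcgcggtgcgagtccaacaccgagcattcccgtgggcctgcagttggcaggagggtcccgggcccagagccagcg
ABCE1 chr4:145098061-145098360: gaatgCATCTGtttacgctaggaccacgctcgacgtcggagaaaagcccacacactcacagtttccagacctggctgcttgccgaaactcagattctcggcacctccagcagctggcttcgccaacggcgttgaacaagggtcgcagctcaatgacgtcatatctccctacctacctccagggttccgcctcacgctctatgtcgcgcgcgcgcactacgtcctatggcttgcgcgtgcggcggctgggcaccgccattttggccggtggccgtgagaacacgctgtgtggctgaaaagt
ABCC4 chr13:95301402-95301701: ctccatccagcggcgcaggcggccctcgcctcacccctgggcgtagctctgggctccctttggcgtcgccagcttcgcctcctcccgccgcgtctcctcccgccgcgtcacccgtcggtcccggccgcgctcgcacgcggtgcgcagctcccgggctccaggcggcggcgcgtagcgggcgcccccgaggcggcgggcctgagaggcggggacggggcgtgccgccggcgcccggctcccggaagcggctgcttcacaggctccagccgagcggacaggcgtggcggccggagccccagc
ABCA12 chr2:215032037-215032336: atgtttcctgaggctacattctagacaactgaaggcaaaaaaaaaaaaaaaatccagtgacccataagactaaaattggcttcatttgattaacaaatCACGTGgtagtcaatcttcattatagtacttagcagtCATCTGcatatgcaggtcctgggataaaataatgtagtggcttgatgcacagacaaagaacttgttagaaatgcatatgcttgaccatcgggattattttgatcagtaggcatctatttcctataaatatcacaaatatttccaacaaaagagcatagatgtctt

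Counted from the start site, with the first transcribed base as 1, the ABCB6 window holds CACGTG at -156 and no CATCTG. The ABCE1 window holds CATCTG at -245 and no CACGTG, and the ABCC4 window holds neither. The window of ABCA7, which rose in siMYCN and is not printed, also holds neither. The ABCA12 window shown belongs to the downstream of its 2 starts and holds CACGTG at -152 and CATCTG at -115, while the window at the upstream start holds neither. Among members with a window, CACGTG was found in 1 of the 5 that fell in siMYCN, in 2 of the 4 that rose and in 2 of the 10 that did not pass. In siHAND2 CATCTG was found in 1 of the 4 that fell, 2 of the 3 that rose and 2 of the 12 that did not pass. A match describes the letters of the window and is not evidence of binding.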

How the data were processed

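Total RNA of 9 LAN5 libraries (3 each of siCTR, siMYCN and siHAND2) had been sequenced, and the authors deposited 1 table of CPM values for 25084 genes, with a constant of 0.0001 in every value; all 9 value columns were used. The reads were aligned with STAR 2.5.1, and Partek is also named, per the submitters' processing notes. These notes name hg19 and GRCh37, but 91.4% of the 18213 symbols found in the GRCh38.p14 RefSeq table had a start within 5000 bp of it, against 5.62% of 18635 symbols in a GRCh37 annotation, so the table's positions are printed as GRCh38. The counting tool, its use of strand, the annotation and any filter are not given in the sources used here.

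Depth was read from the smallest step of the low CPM values. Per library, 79.3% to 80.8% of the low values fell within 0.02 of a step from a whole read number, under the 95% needed for a count model. The 14495 genes that reached 1 CPM in 3 or more libraries were tested with limma 3.58.1 in R 4.3.3 on log2(CPM + 1), 1 mean per group in all 9 libraries, with an intensity trend, two-sided, Benjamini-Hochberg adjusted over all tested genes, threshold 0.05. A log2 difference on this scale understates the change of low genes. The fit was tested on simulated data, and in the first draw the share of false calls was above the bound set for it. The criterion was afterwards changed to a bound on several draws pooled, which they met. The simulation drew whole read counts, with the same added spread for every gene and changed genes in siMYCN only. These settings differ from the data, so it does not measure the share of false calls here. CPM per kb used the canonical transcript of GENCODE v44lift37.

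Given in full were the drug-efflux ABCB and ABCC members and ABCG2 where they passed the filter, per comparison and direction up to 6 other called members with the smallest adjusted p, and the 2 called partner genes with the smallest p; other members are given by range. Alternatives changed the pseudocount, filter, scaling, fit, weights, block and libraries. The members, lists and this rule were chosen with earlier results of these data known. The single values of 2 members, which stay in the counts and sums, are not reported here.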

Additional observations from a re-analysis of the deposited data

How the results depend on the processing

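The number of members past the threshold stayed within 1.5 times of 10, 8 and 11 in siMYCN, siHAND2 and the direct comparison under every alternative: pseudocounts of 0.1 and 5, no filter or a filter of 5 CPM, both other scalings, 2-group fits, no intensity trend, precision weights, a replicate block and each library left out. Leaving out 1 library gave 8 to 10, 6 to 10 and 9 to 11 members. With the replicate number as a block 11, 9 and 11 members passed. Over all tested genes the block raised the calls from 5209, 4339 and 3892 to 5895, 5089 and 4689. The main fit did not pair the libraries, since the labels give only a replicate number. Libraries were correlated over the tested genes after the group mean of each gene was subtracted from its log2(CPM + 1). These correlations therefore describe the deviations within groups and not the whole profiles. Same-numbered libraries correlated between 0.076 and 0.18 (siMYCN and siCTR) and between 0.039 and 0.17 (siHAND2 and siCTR). For siHAND2 and siMYCN the range was -0.040 to 0.31. Every library correlated best with its own number only for siMYCN and siCTR. Each siHAND2 library also correlated best with its own number in siCTR, but not each siCTR library with siHAND2. A shared effect of the replicate number was not tested. No called difference changed direction. Uncalled differences of ABCA7, ABCB9, ABCC5, ABCC10 and ABCF3 in siHAND2 and of ABCG4 between the knockdowns each passed in 1 setting. Differences of members that did not pass changed sign as follows. With median-ratio rescaling they were, in siMYCN against siCTR -0.039 (ABCA3), -0.020 (ABCB10), -0.011 (ABCB9), -0.045 (ABCD2), and in siHAND2 against siCTR -0.029 (ABCD3), -0.028 (ABCF2). With quantile normalization they were, in siMYCN against siCTR -0.030 (ABCA3), -0.014 (ABCB10), -0.039 (ABCB9), -0.074 (ABCD2), and in siHAND2 against siCTR -0.0095 (ABCD3), -0.020 (ABCF2). With 1 library left out, in siMYCN against siCTR ABCA3 ranged from -0.023 to 0.041, ABCB10 ranged from -0.0021 to 0.071, ABCB9 ranged from -0.025 to 0.095, ABCD2 ranged from -0.065 to 0.077, in siHAND2 against siCTR ABCB8 ranged from -0.048 to 0.048, ABCD3 ranged from -0.045 to 0.055, ABCF2 ranged from -0.0080 to 0.037, in siHAND2 against siMYCN ABCB6 ranged from -0.047 to 0.020, ABCC1 ranged from -0.023 to 0.063, ABCD4 ranged from -0.087 to 0.016, ABCF3 ranged from -0.019 to 0.096. The cause of these shifts was not tested. Members that did not pass the filter on low values rest on few reads, and no test of their differences is given.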
